A study of Mus musculus with 2 samples.

Results

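The Wnt pathway genes of mouse epidermis were followed in 2 littermate pairs of pups, from the secreted ligands through receptors and inhibitors to the nuclear mediators and the targets that feed back on the signal. The members were chosen by name, and the list was drawn up with the log2 ratios of these same arrays known, among them the low ratios of Ascl2 and Wnt10a. Their values are therefore a description, and a count of members past a threshold supports nothing beyond itself. The list holds 53 genes, which 71 of the 55676 probes on the array measured, out of 34820 gene names. By role these were 14 genes for ligands and their processing, 14 for receptors, 12 for inhibitors and the complex that destroys beta-catenin, 5 for nuclear mediators, and 8 for feedback genes and targets.

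On each array the epidermis of a double transgenic pup (K14-rtTA;TRE-Sox11-FLAG), called SOX11-induced here, was set against the epidermis of a control littermate that had the K14-rtTA transgene and no TRE-Sox11-FLAG. All 4 pups were FVB/N, aged postnatal day 4.5, and had doxycycline (Dox) for 12 h. K14-rtTA drives a Dox-dependent activator in keratin 14 positive cells of the epidermis, and TRE-Sox11-FLAG answers to it with FLAG-tagged SOX11, a transcription factor of embryonic skin. Control RNA carried Cy3 and SOX11-induced RNA carried Cy5 on both arrays per the labels, so at any 1 probe dye and genotype cannot be told apart. The methods speak of a swap of the dyes that is not in the labels. The labels were followed, and the log2 ratios of the 2 arrays correlated positively over all probes, at 0.529. If a dye orientation differed from its label, the signs of that array would turn.

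Wnt proteins are lipid-modified signals that bind Frizzled receptors together with the co-receptors Lrp5 and Lrp6. The signal keeps beta-catenin, the product of Ctnnb1, from being destroyed, and beta-catenin then switches on target genes together with Lef1 and the Tcf factors. In skin this pathway is known for the formation and cycling of hair follicles and for the upkeep of the basal epidermis, whose cells make Wnt ligands of their own.

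Probes behind clear differences between the pups are shown first, as the first 30 bases of each 60-base probe, with mm9 coordinates of the whole probe. They are the probes of 4 ligands and of Ascl2, lower in the SOX11-induced pup of both pairs, and the brighter probe of Fzd2, higher in both. Whether a probe lies in a coding exon or an untranslated region was not assigned, since the gene table used here is of another build.
Wnt10a, chr1:74850633-74850692, plus strand: tttcacttaacagatatttatttttgcgct
Wnt6, chr1:74831461-74831520, plus strand: ttcctcagaattactgggatggatgggtga
Wnt4, chr4:136855342-136855401, plus strand: tatgaggctccttggcattgtgacatcccc
Wnt4, chr4:136851690-136852258, plus strand: tcttcacaacaacgaggctggcaggaaggc
Wnt3, chr11:103679038-103679097, plus strand: atttaataatagtacatgagcgcattgtaa
Ascl2, chr7:150152734-150152793, minus strand: ggccagtgtgggaaccctgctgttgcaaag
Fzd2, chr11:102467613-102467672, plus strand: tcacagtctacatgatcaaatacctcatga
The Wnt10a, Wnt6 and Wnt3 probes were each 35% G and C, against 46.7% and 55.0% for those of Wnt4. Among the 8730 probes above background with at most 40% G and C, the median log2 ratio was 0.04 in pair 1 and 0.06 in pair 2. Of the 12 member probes that passed the test described below, 7 were among these 8730. A median over many probes does not speak for a single one, and a part of base content in these ratios was not tested.

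Between 37.5% and 42.6% of the 59305 non-control spots of a channel were well above background. Sox11 itself gave no check of the genotype, since both of its probes were not well above background in any of the 4 channels, and the transgene carries the open reading frame of Sox11 alone per the methods, relative to which these probes were not placed. Epidermal identity was present in every pup, with 8 of 8 keratinocyte markers above background in all 4 channels. Within that list Krt15, a keratin of the basal layer and hair follicle, fell, with ratios of -1.08 and -0.98 (limma adjusted p = 0.00573). The differentiation markers Krt1, Krt10 and Lor had mean ratios of 0.62, 0.58 and 0.50 and did not pass the test. The control pup of pair 1 stood apart in 1 respect. A list of 19 hair follicle markers was above background in all 4 channels, and every one of them was lowest in that pup. Their median log2 ratio was 1.93 in pair 1, from 1.01 to 2.46, and -0.36 in pair 2, from -0.59 to 0.18. In epidermal sheets, fewer cells of a type and less RNA per cell cannot be told apart. Fibroblast markers had median ratios of -0.17 and 0.09 in the 2 pairs, with Lum and Pdgfra not detected, though Thy1 at -1.29 and Dcn at -0.79 fell and Fbln1 at 0.62 rose. Immune markers had medians of -0.24 and -0.01, with Lyz2 not detected. The part of these cell types, and of the basal layer, in the results was not tested.

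Ratios are given as the log2 of SOX11-induced over control brightness, so that 1 is a doubling, -1 a halving, and 0 no difference. A member passed the test where its adjusted p in limma, adjusted by Benjamini-Hochberg over all 55676 probes, was under 0.05, and it was called where its mean log2 ratio was also past 1.5 in size. Of the 71 member probes, 50 were well above background on both arrays, in 1 channel or in both, a filter that a gene high in 1 genotype alone can pass. These 50 covered 40 genes. Another 9 genes had no probe above background in any channel, namely Wnt3a, Wnt9a, Fzd9, Ror1, Dkk1, Dkk2, Sfrp2, Sfrp4 and Sp5. Wnt7a, Ror2, Apc and Tcf7l1 were above it in only some channels and not on both arrays.

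Among the 71 probes, 10 passed the test lower in SOX11-induced epidermis, where 1.41% of all probes did, and 2 passed it higher, where 2.99% of all probes did. All 12 met the filter of signal above background on both arrays, in 1 channel or in both. Of all probes that met it, 3.21% passed the test lower and 6.78% higher. The Axin2 probe met it through the controls only, and Wnt10b was not above background in the SOX11-induced pup of pair 1. The 10 lower probes belonged to 9 genes, namely Wnt10a, Wnt4, Wnt6, Wnt3, Wnt16, Wnt10b, Fzd10, Ascl2 and Axin2, and the 2 higher probes to Fzd3 and Fzd2. Past a log2 ratio of 1.5, 3 probes were called lower, for Ascl2, Wnt10a and Wnt4, beside 0.0862% of all probes and 0.22% of those above background. The choice of Ascl2 and Wnt10a fixed 2 of these. Without them the members had 69 probes, of which 8 passed lower and 1 was called, so nothing is read from the counts beside the shares. None was called higher, beside 0.366% of all probes and 0.937% of those above background. The median over the member genes, each by its brightest probe, was 0.03, against 0.00 over all genes on the array. Centring each array on its median in place of the intensity-dependent loess gave 13 member probes lower and 27 higher. Over the whole array 18485 of the 55676 probes then passed the test, against 2446 in the main fit. With the scanner software's own processed signals no member probe passed the test, and no probe of the whole array did.

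**Figure D1:**
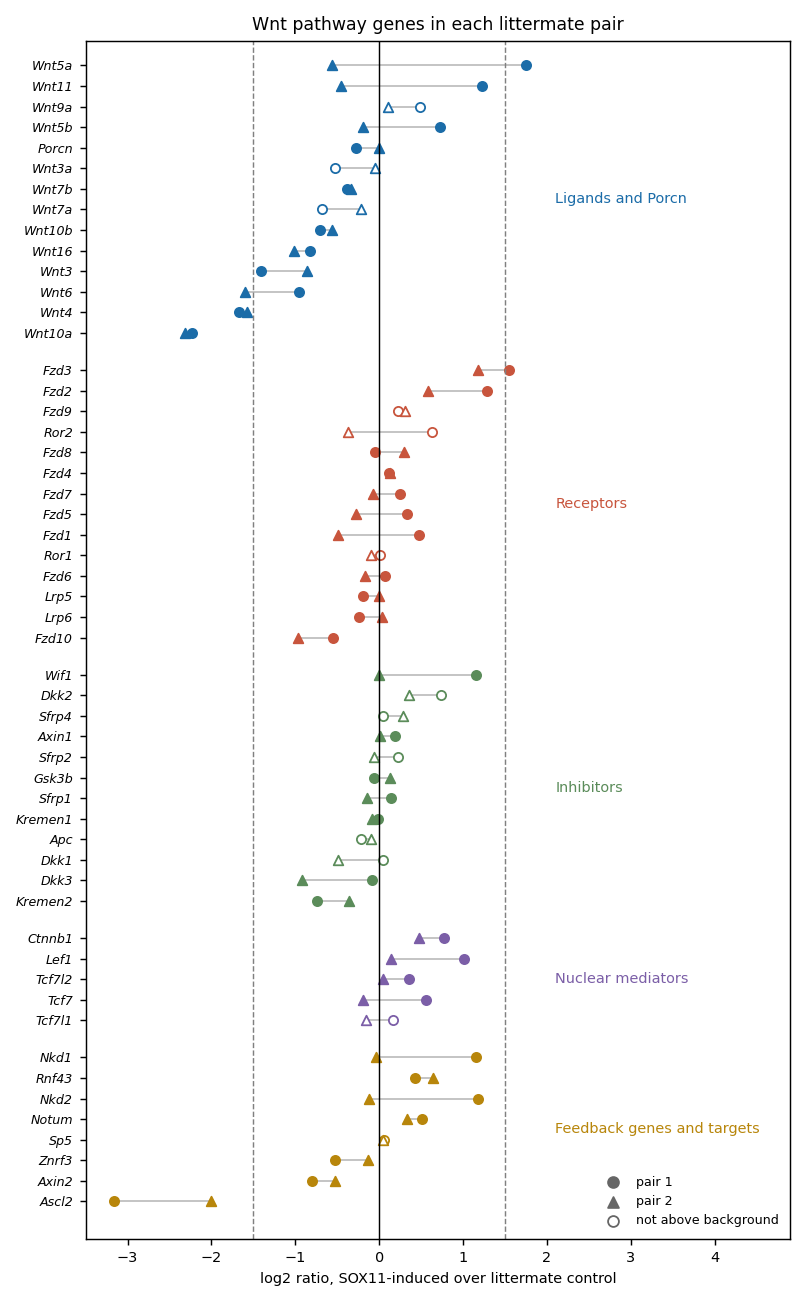
Log2 ratio of SOX11-induced over littermate control for the 53 genes, each by its brightest probe, grouped by role. Circles are pair 1 and triangles pair 2, open where the probe was not well above background on both arrays, and dashed lines mark 1.5 in either direction. Ligands reach from Wnt10a near -2.3 in both pairs to Wnt5a, whose 2 pairs lie on opposite sides of 0.

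Several Wnt ligands were lower in SOX11-induced epidermis. Of 14 genes in this role, by their brightest probes, 6 fell and none rose, where 1.82% of all genes fell and 3.6% rose. The 6 were all Wnt ligands. The list was drawn up with the ratios known, that of Wnt10a among them, so nothing is read from these counts beside the shares. The median of the 13 Wnt ligands was -0.45, with 9 lower in both pairs and 1 higher in both, where 33.4% of all genes were lower in both. These counts include Wnt3a and Wnt9a, the 1 higher, which had no signal above background. The median was the value of Wnt7a, above background in pair 1 only. Among the 11 genes of this role above background on both arrays, 7 were lower in both pairs and 0 higher. Of all probes above background, 33.1% were lower in both. The members lower in both pairs included Wnt7b, Wnt7a and Wnt3a, which did not pass the test, and under centring on the median Wnt7b turned to 0.13.

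Wnt10a, a ligand of skin appendages whose loss impairs hair, teeth and sweat glands, read 11.69 and 11.21 on the log2 brightness scale in the control pups of pairs 1 and 2. It read 9.45 and 8.89 in their SOX11-induced littermates. Both SOX11-induced pups thus lay well below both controls. The ratios of -2.23 and -2.31 differed by little, with a mean of -2.27 ± 0.06 (SD, n = 2), which is 4.83-fold lower. Wnt10a and Ascl2 were known to be low when the list was made, so no p is given for either. Their place in the counts above is a description. The ratios of these arrays were known for the list as a whole, so the adjusted p of any other member is a description too.

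Wnt6, another ligand made by surface epithelia, lies next to Wnt10a on chromosome 1, and the mm9 positions of their probes are 19.1 kb apart. Its level was 9.02 and 8.32 in the control pups, and 8.06 and 6.72 in the SOX11-induced pups. It fell by 1.28 ± 0.46 on the log2 scale (SD, n = 2, limma adjusted p = 0.00518), with ratios of -0.96 and -1.60. Both neighbours were thus lower in both pairs. Other Wnt genes that lie close together gave other patterns. Wnt9b, whose probe lies 90.1 kb from that of Wnt3, was not above background in any channel. Wnt1 lies near Wnt10b, with probes 21.9 kb apart, and its probe above background had ratios of -0.16 and 0.12, while Wnt10b fell. Wnt3a and Wnt9a, also neighbours, were both below background.

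Wnt4, a ligand active in the epidermis and in several glands, had 2 probes, and both fell. The probe at chr4:136855342-136855401 read 12.75 and 12.03 in the controls and 11.07 and 10.46 in the SOX11-induced pups, a mean ratio of -1.62 ± 0.07 (SD, n = 2, limma adjusted p = 0.000504), or 3.08-fold lower. The second, whose 60 bases spread over 569 bases of genome, read 9.54 and 9.38 against 8.28 and 7.95, a mean ratio of -1.35 ± 0.12 (SD, n = 2, limma adjusted p = 0.00147). At both probes each SOX11-induced pup lay below each control.

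Wnt3, a ligand of the canonical, beta-catenin dependent branch, fell by 1.14 ± 0.38 on the log2 scale (SD, n = 2, limma adjusted p = 0.00729). Its level was 9.80 and 8.96 in the controls against 8.39 and 8.09 in the SOX11-induced pups. The drop was larger in pair 1, at -1.41, than in pair 2, at -0.87, and the genotypes did not overlap.

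Wnt16, a ligand found in skin and bone, had 2 probes that parted. The brighter, at chr6:22247804-22247863, read 7.86 and 7.46 in the controls and 7.04 and 6.44 in the SOX11-induced pups, with a mean ratio of -0.92 ± 0.14 (SD, n = 2, limma adjusted p = 0.0112). The other had ratios of 0.12 and -0.86 and did not pass the test (limma adjusted p = 0.374). The fall of Wnt16 thus rests on 1 of its 2 probes.

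Wnt10b, a ligand of hair follicle growth, lay at the threshold. It read 6.32 and 6.30 in the controls and 5.62 and 5.74 in the SOX11-induced pups, where the first was not above background, with a mean ratio of -0.63 ± 0.10 (SD, n = 2). Its adjusted p in limma was 0.0499, the member just inside the threshold of 0.05, and the second Fzd2 probe was just outside it at 0.0514. Keeping the spots that the scanner software marked as outliers moved Wnt10b to 0.0510.

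**Figure D2:**
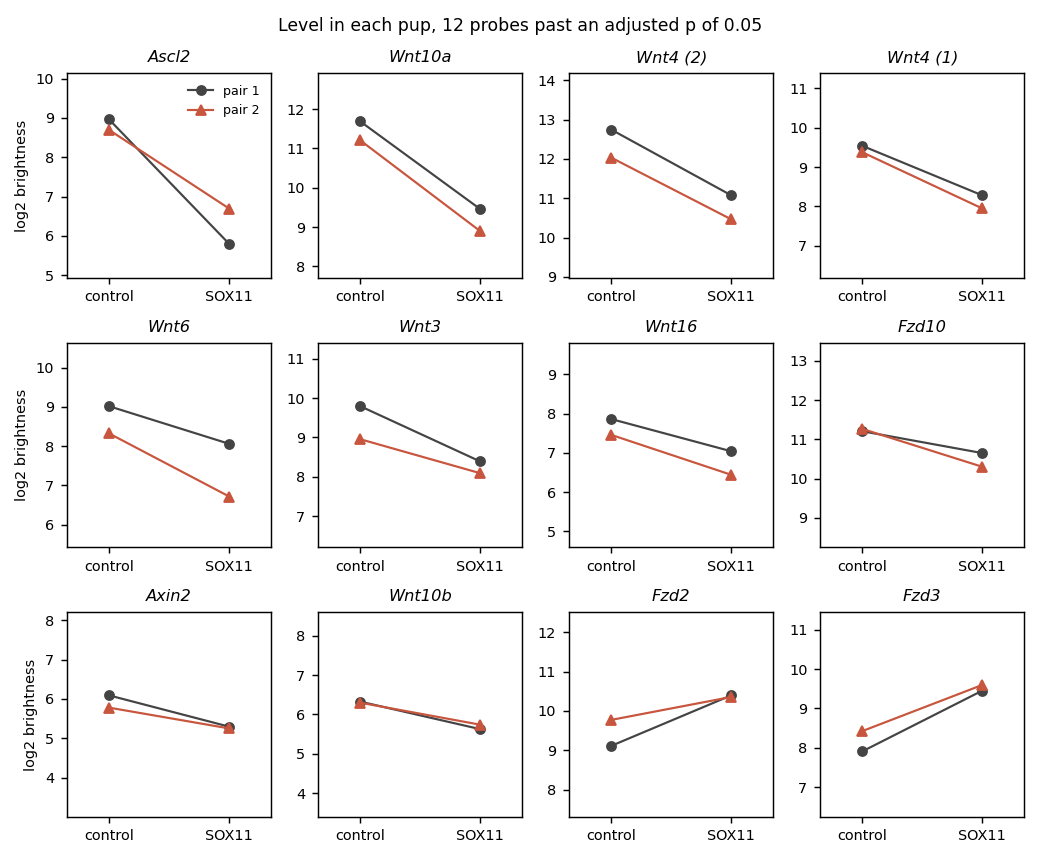
Log2 brightness in each of the 4 pups for the 12 member probes past an adjusted p of 0.05, each panel spanning the same number of log2 units. Lines join littermates, in grey with circles for pair 1 and red with triangles for pair 2. Wnt10a drops from 11.69 and 11.21 to 9.45 and 8.89, while Fzd3 climbs from 7.91 and 8.42 to 9.45 and 9.60.

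The remaining ligands did not pass the test, and several went opposite ways in the 2 pairs. Wnt7b, a ligand of the basal epidermis, had close ratios of -0.39 and -0.34 (limma adjusted p = 0.205). Wnt5a, the best known ligand of the beta-catenin independent branch, read 7.14 and 9.86 in the controls and 8.89 and 9.30 in the SOX11-induced pups. Its ratios were 1.75 and -0.56, so the control pups differed from each other by more than either differed from its littermate. Wnt11, of the same branch, read 6.77 and 8.65 in the controls against 7.999 and 8.20, with ratios of 1.23 and -0.46. Wnt5b had ratios of 0.73 and -0.19. Porcn, the enzyme that attaches the lipid to Wnt proteins, had ratios of -0.28 and 0.00. None of these means passed the test.

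Receptors moved in both directions. Of 14 receptor genes, by their brightest probes, Fzd3 and Fzd2 rose, Fzd10 fell, and the median was 0.06. Over all genes on the array 3.6% rose and 1.82% fell. The ratios of 8 of the 14 went opposite ways in the 2 pairs. Fzd3, a Frizzled receptor known for planar cell polarity in skin and axon growth, read 7.91 and 8.42 in the controls and 9.45 and 9.60 in the SOX11-induced pups. Both SOX11-induced pups were above both controls, with a mean ratio of 1.36 ± 0.26 (SD, n = 2, limma adjusted p = 0.00195), or 2.57-fold higher. This was the highest mean ratio among the members.

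Fzd2, a Frizzled that can carry both branches of the signal, had 2 probes. The brighter read 9.11 and 9.77 in the controls and 10.40 and 10.35 in the SOX11-induced pups, with a mean ratio of 0.94 ± 0.50 (SD, n = 2, limma adjusted p = 0.0261). The 2 SOX11-induced pups were nearly equal, and the spread in the ratio came from the controls. The second probe was above background in the SOX11-induced pups only, which gives at least 1.48-fold higher. Such a bound sets the brighter genotype's mean against, on each array, the lowest signal that counted as above background or the dim probe's own signal, whichever was higher.

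Fzd10, a Frizzled of the beta-catenin dependent branch, read 11.21 and 11.27 in the controls and 10.65 and 10.30 in the SOX11-induced pups. Its mean ratio was -0.76 ± 0.29 (SD, n = 2, limma adjusted p = 0.0335), and under centring on the median it was -0.12. Lrp5 and Lrp6, the co-receptors, stayed small in both pairs, with mean ratios of -0.10 for Lrp5 and of 0.18 and -0.10 for the 2 Lrp6 probes. Among the other Frizzled receptors above background, Fzd1 had ratios of 0.47 and -0.50, Fzd6 of 0.07 and -0.17, and Fzd7 of 0.25 and -0.07. The 2 Fzd5 probes had mean ratios of 0.03 and 0.10. Fzd4 and Fzd8 were above background in the SOX11-induced pups only. Fzd4 had ratios of 0.11 and 0.13, while Fzd8 had -0.06 and 0.30, opposite ways in the 2 pairs. None of these passed the test.

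Inhibitors and the destruction complex had no member past the test. Their 12 genes had a median of 0.02. Kremen2, a receptor for the Dkk inhibitors, had the lowest adjusted p among those above background, with ratios of -0.74 and -0.36 (limma adjusted p = 0.0947). Dkk3, a divergent member of the Dickkopf family, had ratios of -0.09 and -0.92. Wif1, a secreted protein that binds Wnt ligands, had ratios of 1.15 and 0.00. Sfrp1, another secreted binder, had ratios of 0.14 and -0.15, and Kremen1 had -0.02 and -0.09. Inside the cell, Axin1, the scaffold of the destruction complex, had ratios of 0.19 and 0.01. Gsk3b, the kinase that marks beta-catenin for destruction, had 3 probes with mean ratios of 0.38, 0.28 and 0.03.

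Nuclear mediators likewise had no member past the test, and their median was 0.20. Ctnnb1, which encodes beta-catenin, read 10.69 and 10.95 in the controls and 11.46 and 11.43 in the SOX11-induced pups. Its mean ratio was 0.62 ± 0.21 (SD, n = 2, limma adjusted p = 0.0583), and it passed the test when probes below background were left out, at 0.0486, and with a larger background offset of 50, at 0.00907. Lef1, the partner of beta-catenin in hair, had ratios of 1.01 and 0.14 at its brighter probe and of 1.11 and 0.29 at the other (limma adjusted p = 0.151 and 0.0878). Both Lef1 probes were lowest in the control pup of pair 1. Tcf7 had ratios of 0.56 and -0.19, and the 2 Tcf7l2 probes above background had mean ratios of 0.20 and 0.06.

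Feedback genes and targets split. Ascl2, a basic helix-loop-helix factor and Wnt target of intestinal stem cells, had the lowest mean ratio of all 55676 probes, which was known when it was put on the list. It read 8.96 and 8.70 in the controls and 5.80 and 6.69 in the SOX11-induced pups, with ratios of -3.17 and -2.001 and a mean of -2.58 ± 0.82 (SD, n = 2), which is 5.997-fold lower. Its 1 probe was above background in all 4 channels.

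Axin2, a widely used direct target that restrains the signal, also fell at 1 of its 2 probes. That probe read 6.09 and 5.78 in the controls and 5.29 and 5.25 in the SOX11-induced pups, but was above background in the controls only. The fall was therefore a bound, at least 1.38-fold, and the probe entered through the genotype where it was high. Its limma adjusted p of 0.0465 used SOX11-induced signals that were not above background. The second Axin2 probe was above background in no channel. In the table of processed ratios that the authors deposited, the same limma fit gave Axin2 an adjusted p of 0.0732.

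The other feedback genes did not pass the test, though some calls turned on the processing. Rnf43 and Znrf3, ubiquitin ligases that remove Frizzled receptors from the cell surface, lay on opposite sides of 0. Rnf43 had ratios of 0.43 and 0.65 (limma adjusted p = 0.0858), and Znrf3 had -0.53 and -0.14. Notum, an enzyme that strips the lipid from Wnt proteins, had ratios of 0.50 and 0.33. Nkd1, which binds Dishevelled and dampens the signal, had ratios of 1.15 and -0.03, and Nkd2, its relative, of 1.17 and -0.12 at its brighter probe. With an offset of 50, Rnf43 and Notum passed the test higher (limma adjusted p = 0.0149 and 0.0312). Under centring on the median, Rnf43 at 1.12, Notum at 1.00, Nkd1 at 1.02 and Nkd2 at 1.03 all passed higher, where the median of all probes above background was itself 0.51.

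**Figure D3:**
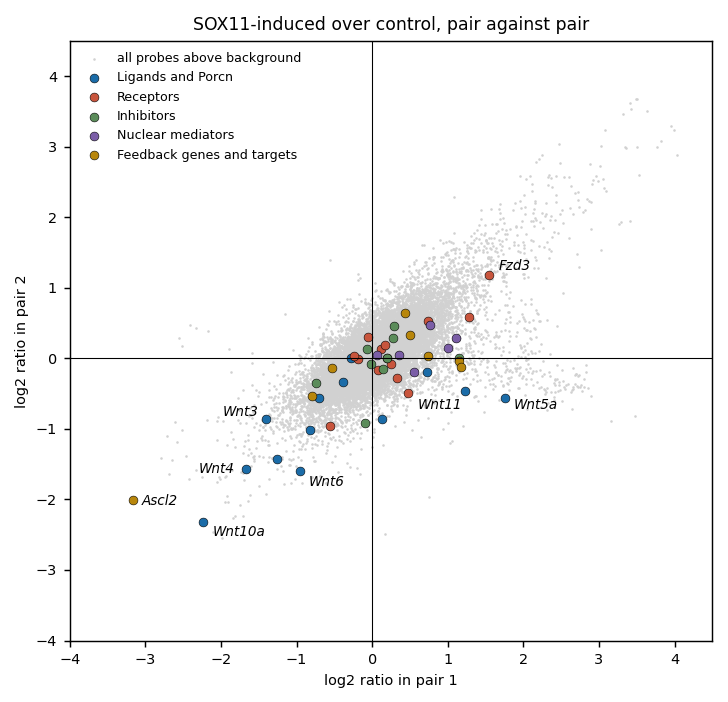
Log2 ratio of each probe above background in pair 1, horizontal axis, against pair 2, vertical axis, with the 50 member probes above background coloured by role and all 21782 such probes in grey. Ascl2, Wnt10a, Wnt4, Wnt3 and Wnt6 lie low in both pairs, Fzd3 lies high in both, and Wnt5a and Wnt11 lie right of 0 and below it.

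The 2 pairs parted on several members. Among probes above background in all 4 channels, the log2 ratios of the pairs differed by more than 1 at 5 of 44 member probes, or 11.4%, against 429 of 19095 such probes, or 2.25%. Of those 429 probes of the whole array, 381 were higher in pair 1, so that direction was not particular to the members. Ascl2 was lower in pair 1, and Wnt5a, Wnt11, Nkd2 and Nkd1 were higher in pair 1. Each of these 4 had its lowest level in the control pup of pair 1, and the other 3 pups lay closer together. Nkd1 read 6.65 in that pup, against 7.80, 8.08 and 8.04 in the others. Nkd2 read 6.95 there, against 8.13, 8.61 and 8.49. Wif1 read 5.23 in that pup, which was not above background, against 6.39, 6.11 and 6.11, so the size of its gap was not measured.

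The 19 hair follicle markers had the same low pup. Their median level, each gene taken relative to its mean over the 4 pups, was -1.71 in the control pup of pair 1, 0.22 in its SOX11-induced littermate, and 0.96 and 0.64 in the control and SOX11-induced pups of pair 2. The log2 of their summed brightness was 16.87, 18.77, 19.48 and 19.13 in the same order. Wnt10a, Wnt6, Wnt3, both Wnt4 probes and the brighter Wnt16 probe were at their highest in the control pup of pair 1, while the other Wnt16 probe was highest in the SOX11-induced pup of that pair. The part of hair follicle RNA in any of these values was not tested.

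**Figure D4:**
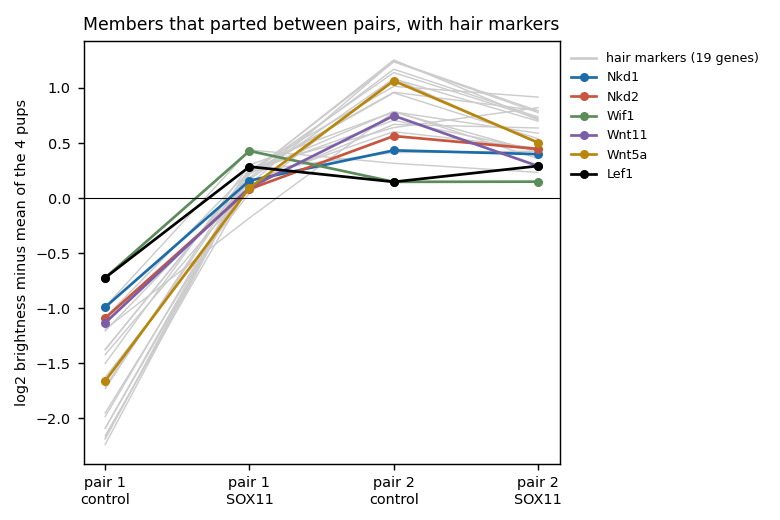
Log2 brightness in each pup minus the mean of the 4 pups, for Wnt5a, Wnt11, Nkd1, Nkd2, Wif1 and Lef1 in colour and black and for 19 hair follicle markers in grey. The control pup of pair 1 is lowest in every line, with a hair marker median of -1.71 there against 0.22 to 0.96 in the other pups.

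Beyond the members, 66 other genes of Wnt signalling were on the array with 98 probes, and 43 of the genes were above background by their brightest probe. Of the 66 genes, by their brightest probes, 3 fell, 4 rose and none was called, with a median of 0.01. Over all genes on the array 1.82% fell and 3.6% rose. Among the 43 above background 2 fell, since Lgr5 was not one of them. Those that fell were Ccnd1, which encodes the cell cycle protein cyclin D1, Lgr5, a receptor for R-spondin proteins, and Tnfrsf19, a receptor known as a Wnt target. Ccnd1 had ratios of -0.80 and -1.68 (limma adjusted p = 0.0117). Lgr5 had ratios of -0.69 and -1.93, but its probe was above background only in the control pup of pair 2. Tnfrsf19 had ratios of -1.09 and -0.59 (limma adjusted p = 0.0263), and a second Tnfrsf19 probe also passed.

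The 4 that rose were Tnks2, Bcl9, Amer1 and Wls. Tnks2, a tankyrase that marks Axin for removal, rose at 2 probes, with mean ratios of 1.03 and 1.11. Bcl9, a coactivator of beta-catenin, had ratios of 1.12 and 0.82 (limma adjusted p = 0.00989). Amer1, a membrane-bound partner of Apc, had ratios of 1.05 and 0.79. Wls, the carrier that takes Wnt proteins to the cell surface, had ratios of 0.88 and 0.65 (limma adjusted p = 0.0261). Tle2, a Groucho corepressor that binds Tcf factors, passed the test lower at a probe other than its brightest, with a mean ratio of -0.64.

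The promoters of the members that fell were read for the letters that the nuclear partners of the pathway and SOX factors are known to bind. RefSeq promoters on GRCm38.p6, from 250 bases before each gene's start to 50 after it, matched 35 of the 53 genes, with 45 records. On either strand, CTTTGAT or CTTTGTT, bound by TCF/LEF factors, was in 15.6% of member promoters and in 9.33% of all 32851. ACAATG or ACAAAG, bound by SOX factors, was in 26.7% of member promoters and in 28.6% of all. The 2 motifs overlap, since CTTTGTT holds the reverse complement of ACAAAG. Among the genes past the test, Wnt10a, Fzd2 and Fzd3 had no record and were not read. Of the 8 genes that fell and had a record, 1 held the TCF/LEF letters and 2 the SOX letters.

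Wnt3 and Wnt16 were those 2, and Wnt4 is shown beside them as a fallen ligand with no match. Bases run from 250 before the start to 30 after it, and capitals mark the match.
Wnt3, chr11:103773925-103774204, plus strand: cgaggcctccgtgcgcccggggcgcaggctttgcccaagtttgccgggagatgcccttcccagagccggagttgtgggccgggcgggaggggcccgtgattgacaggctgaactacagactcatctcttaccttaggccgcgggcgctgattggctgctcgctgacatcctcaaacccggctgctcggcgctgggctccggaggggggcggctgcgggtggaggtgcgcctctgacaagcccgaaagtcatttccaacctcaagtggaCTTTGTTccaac
Wnt16, chr6:22287977-22288256, plus strand: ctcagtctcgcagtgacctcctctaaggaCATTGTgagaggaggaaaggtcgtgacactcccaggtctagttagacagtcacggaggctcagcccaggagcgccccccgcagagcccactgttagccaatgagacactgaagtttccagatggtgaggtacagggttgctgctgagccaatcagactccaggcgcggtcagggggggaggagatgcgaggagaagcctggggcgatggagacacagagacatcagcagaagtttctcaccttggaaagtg
Wnt4, chr4:137277385-137277664, plus strand: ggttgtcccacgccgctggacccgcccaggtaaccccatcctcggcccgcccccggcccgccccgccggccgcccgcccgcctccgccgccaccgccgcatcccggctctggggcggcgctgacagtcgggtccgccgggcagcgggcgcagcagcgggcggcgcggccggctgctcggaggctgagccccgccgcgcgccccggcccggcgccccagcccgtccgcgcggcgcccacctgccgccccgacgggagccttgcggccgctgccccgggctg
In Wnt3 a single run held both motifs, 19 bases after the start, and in Wnt16 the SOX letters lay 221 bases before it. The Wnt4 promoter was 84.3% G and C, against 65.7% for Wnt3 and 58.0% for Wnt16. A match of letters is a description of the sequence and says nothing of binding.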

How the data were processed

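Epidermis of 4 pups was hybridised to 2 two-colour Agilent arrays, 1 littermate pair per array, both on 1 slide. The authors deposited the scanner files, which hold red and green intensity per spot from Agilent Feature Extraction with probe positions on mm9, and a table of normalised log2 ratios made with limma. That table correlated with the values computed here at 0.961 and 0.953. Its medians were 0.01 and 0.00, it ran in the same direction, and it was used as an alternative only.

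From the mean and background intensity in the scanner files, normexp (offset 16) and loess within each array (control spots at weight 0) were run in limma 3.58.1 under R 4.3.3. Control and outlier spots (194 and 186) were left out, spots of a probe were averaged, and 1 mean per probe was fitted with lmFit and eBayes, adjusted by Benjamini-Hochberg over all probes. The code was tested on simulated data. Pairing lies within each array, so every fit is paired. Levels per pup are log2 intensities after Aquantile. A spot was above background by the scanner software's own flag. With 2 pairs, an exact sign-flip test cannot go below p = 0.5, so every p leans on the spread that limma shares over probes, and the number of arrays limits the precision. Each pup came from 1 sample.

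The members, gene lists and tests were chosen with earlier results of these data known. Named with values were member genes with a probe above background on both arrays, and other pathway genes past the adjusted p. The arrays were the only batch.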

Additional observations from a re-analysis of the deposited data

How the results depend on the processing

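The 12 member probes past the test kept the direction of their mean in each array alone and under every alternative run, though not their call. An offset of 50 gave 7 member probes higher, adding Rnf43, Notum, Ctnnb1, the second Fzd2 probe and a Lef1 probe, and Kremen2 among the lower. Over the whole array 4405 probes passed with that offset, against 2446 in the main fit. Leaving out dim probes gave 4 higher, against 2, and 2597 of the 21782 probes kept passed the test. Centring on the median gave 27 higher, where 18485 of all probes passed the test in either direction. It moved the median of all probes above background to 0.47 and 0.55 in the 2 pairs from 0.04 and 0.03. Beside that shift, Kremen1 at 0.54, Fzd6 at 0.51, Lrp5 at 0.46 and Lrp6 at 0.52 turned from just below 0 to passing the test higher, and Fzd10 at -0.12 and Wnt10b at -0.45 no longer passed. Processed signals left 0 member probes lower, 0 higher and 0 called, and 0 probes of the whole array passed the test. A call threshold of 1.5-fold on the linear scale gave 12 called in place of 3. These were the 12 that passed the test, and the share of all probes at that threshold is not given here. The median over member genes was -0.10 with pair 2 alone, 0.07 with pair 1 alone and 0.23 under centring on the median. The cause of these shifts was not tested. Depth is set by signal over background, and 16 of the 71 probes had none in any channel.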
